A study of Sparus aurata with 8 samples.

Results

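The haploid germ cell (HGC) transcriptome of the gilthead seabream (Sparus aurata) was described from the 4 HGC libraries of a series of 8, chosen as the libraries whose labels name haploid germ cells. HGC are the secondary spermatocytes, round spermatids and elongating spermatids of the testis, collected by flow cytometry according to their size and the brightness of a DNA stain. Each library was a pool of cells from 3 untreated males sampled in the natural reproductive season. The labels give neither an age nor a strain. The 4 ejaculated sperm (SPZ_EJ) libraries of the series were not compared here. Counts of the mRNAs (features typed as protein coding) were scaled to counts per 1000000 mRNA counts (CPM), and mRNAs were ranked by their mean CPM over the 4 pools.

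In the vertebrate testis, germ cells that have finished the meiotic divisions stop dividing and are rebuilt into spermatozoa, a process known as spermiogenesis. The round spermatid forms a flagellum around an axoneme of microtubules, moved by dynein motors and serviced by intraflagellar transport, while its nucleus is compacted and most cytoplasm is removed. Transcription is believed to fall silent as the nucleus condenses, so that many mRNAs of late stages are made early, bound by RNA-binding proteins and stored. The study left it an open question whether such silence is general among teleosts.

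The 4 HGC libraries held between 19865716 and 30645027 counts in all, of which 84.3 ± 1.48% (SD, n = 4) fell on mRNAs and 2.38 ± 0.177% on long non-coding RNAs. Features typed as ribosomal RNA took 11.5 to 14.6% of the counts. With 16498336 to 26350521 mRNA counts per pool, a single count was worth 0.0379 to 0.0606 CPM, and a count of 0 allowed a level of up to 0.114 to 0.182 CPM (3 counts, counting error only). Because the table gives no transcript lengths, CPM is a share of sequenced fragments and not of molecules, and long mRNAs weigh more in it than short ones. In bulk libraries of this kind, fewer cells of a type and less RNA per cell cannot be told apart.

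Of 31501 mRNAs, 10862 were found at 1 CPM or more in every pool, and a further 774 in 3 of the 4 pools. At least 1 count in every pool was seen for 15818 mRNAs, whereas 9160 had no count in any. Levels spanned a wide range, with 12385 mRNAs at a mean of 1 CPM or more, 6707 at 10 or more, 1780 at 100 or more, 143 at 1000 or more and 4 at 10000 or more. The 12385 mRNAs were 39.3% of all, and their median was 12.2 CPM.

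The mRNA counts were concentrated in few genes. The most abundant mRNA held 3.17% of them, the 10 highest 11.1%, the 100 highest 29.0% and the 1000 highest 69.6%, and 378 mRNAs accounted for 50%. Taken pool by pool, 336, 376, 394 and 388 mRNAs reached 50% in pools 1 to 4. Pool 1 was thus the most concentrated, with 72.4% of its counts in its own 1000 highest mRNAs, against 69.7, 68.9 and 68.6% in pools 2, 3 and 4.

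**Figure D1:**
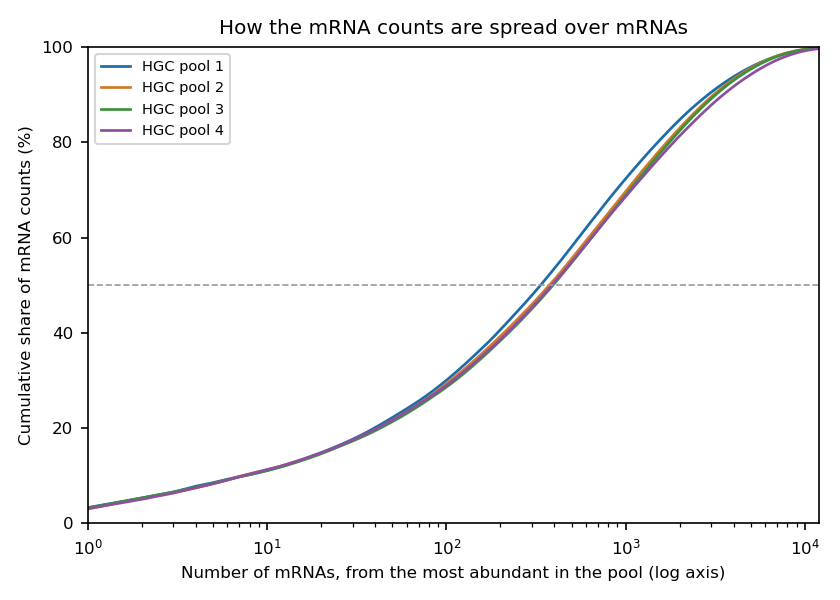
Cumulative share of mRNA counts (vertical axis, %) against the number of mRNAs counted from the most abundant in each pool (horizontal axis, log scale), 1 line per HGC pool, with the dashed line at 50%. The lines run together over the first 10 mRNAs and cross 50% at 336 mRNAs in pool 1 and at 376 to 394 in the other pools.

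Many of the abundant mRNAs, like 48.2% of all 31501 mRNAs, lacked a product name in the annotation. Among the 30 highest, 14 had no product name, as did 44 of the 100 highest and 210 of the 500 highest. Over all mRNAs of 1 CPM or more the share without a name was 35.3%, and all mRNAs without a name took up 37.4% of the mRNA counts. Product names below are those of the annotation, which were transferred from similar proteins of other species.

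The first mRNA by abundance encoded a carbonic anhydrase (Saurata1B054593), an enzyme that interconverts carbon dioxide and bicarbonate and so acts on cell pH. It had 33194, 30409, 32395 and 30893 CPM in pools 1 to 4, with a mean of 31723 ± 1295 CPM (SD, n = 4). The third was creatine kinase B-type (Saurata1B034398), which passes phosphate between creatine and ATP, at 12244, 11856, 12284 and 13084 CPM. Their coefficients of variation between pools (CV, SD divided by the mean) were 0.0408 and 0.0417, but 0.111 and 0.0633 when the pools were scaled by TMM (trimmed mean of M-values) instead of the mRNA total. They stood alone in their families. Of 22 features named as carbonic anhydrases, creatine kinases, adenylate kinases or nucleoside diphosphate kinases, 8 reached a mean of 1 CPM and the next highest, nucleoside diphosphate kinase A1, had 18.3, 12.8, 9.94 and 48.7 CPM.

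Tubulins, the subunits of microtubules, formed the second large block. The 33 tubulin chain mRNAs summed to 40065, 45585, 41006 and 37458 CPM in pools 1 to 4, or 4.10% of the mRNA counts, and 27 of them reached 1 CPM. A pair of beta-1 chains held ranks 2 and 5, Saurata1B002668 with 20132, 22642, 21335 and 19700 CPM and Saurata1B049907 with 7621, 9915, 8155 and 7221 CPM. The alpha chains were led by alpha-1 (Saurata1B052675, rank 15) at 3755, 3759, 3478 and 3217 CPM and alpha-1B (Saurata1B053995, rank 32) at 2427, 2549, 2228 and 2270 CPM. Tubulin genes are near-identical copies, so reads may have been split between them and the values of single chains are uncertain. Of the 19 tubulin mRNAs of 10 CPM or more, 12 were highest in pool 2 and 10 were lowest in pool 4, where 26.2% and 18.7% of all 6707 mRNAs of that abundance were. Under TMM, 7 were highest in pool 2, 7 in pool 1 and 13 lowest in pool 4, against 27.4%, 30.3% and 33.8% of all mRNAs.

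Factors that fold, bind or modify tubulin accompanied the chains. Stathmin (Saurata1B011584, rank 23), which binds free tubulin dimers, had 3024, 2780, 2720 and 2874 CPM. The feature named tubulin-specific chaperone cofactor E averaged 1054 ± 134 CPM and tau-tubulin kinase 2, a kinase known for the start of cilium growth, 600.7 ± 87.8 CPM (SD, n = 4 each). Among the enzymes that attach glutamate or glycine chains to axonemal tubulin, TTLL9 had a mean of 520.7 ± 30.9 CPM (SD, n = 4).

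**Figure D2:**
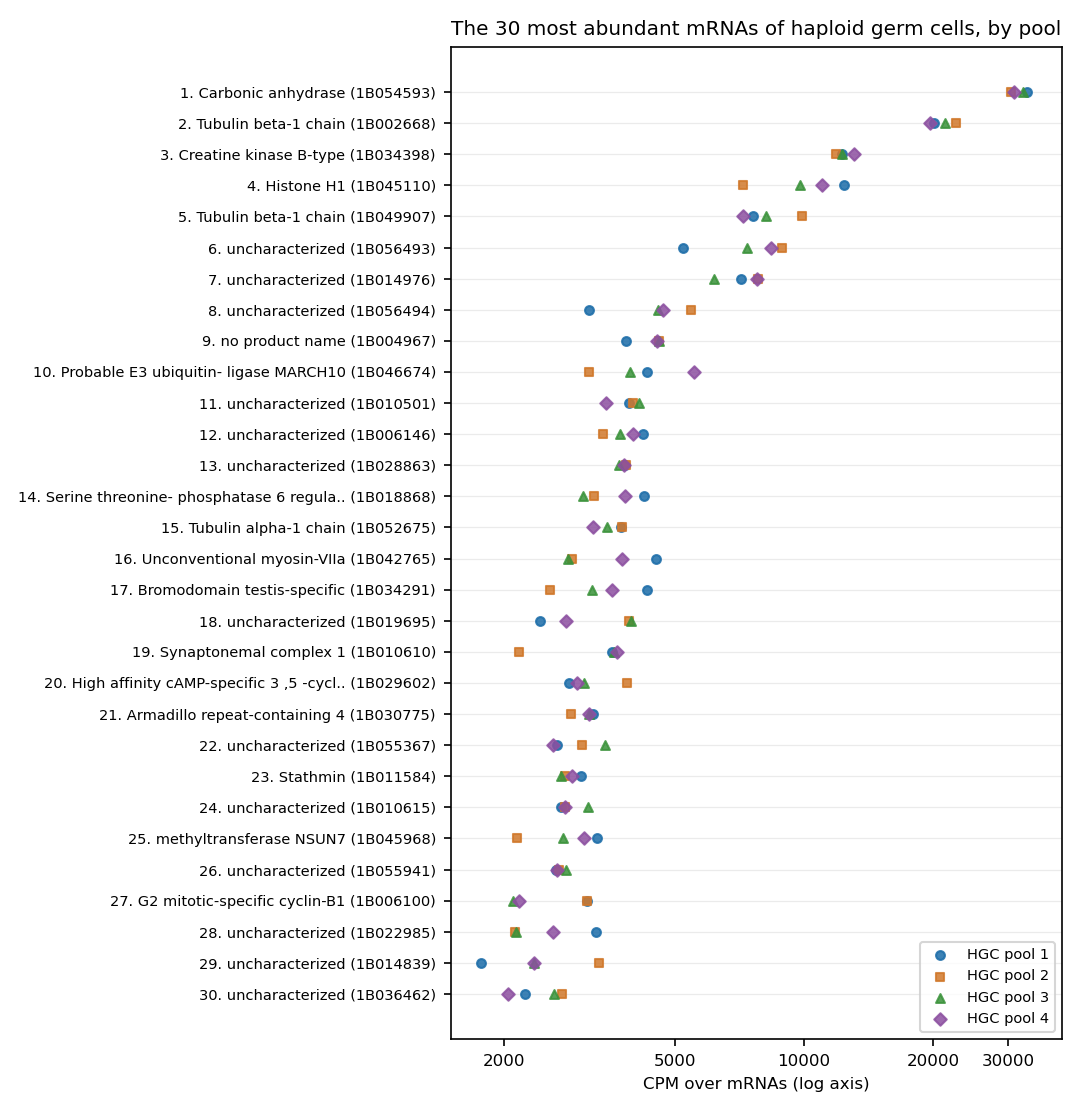
CPM over mRNAs (horizontal axis, log scale) of the 30 mRNAs with the highest mean, ranked from the top, with 1 symbol per HGC pool. The carbonic anhydrase lies between 30409 and 33194 CPM in the 4 pools, while histone H1 runs from 7220 CPM in pool 2 to 12437 CPM in pool 1.

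The machinery of the flagellum was present in breadth. All groups named here and below were drawn up with earlier results of these data known, so their ranks describe their members only. Of 25 axonemal dyneins, docking and assembly factors, 23 reached 1 CPM and 9 were among the 500 highest mRNAs, with a median rank of 861. The 12385 mRNAs of 1 CPM or more were 39.3% of all mRNAs. Their median rank was 6193, and 4.04% of them were among the 500 highest. Armadillo repeat-containing 4, which docks the outer dynein arms, had 3222, 2867, 3147 and 3160 CPM. Axonemal dynein light chain 4 followed with 1665, 1728, 1575 and 1592 CPM and dynein assembly factor 1 with 1472, 1435, 1619 and 1431 CPM. The heavy chains are the motors themselves, and their long transcripts raise their CPM. Heavy chain 8 had 1077, 674.7, 872.9 and 1339 CPM, and the higher heavy chain 7 feature (Saurata1B022746) 413.7, 424.4, 384.3 and 473 CPM.

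Other axonemal and sperm flagellar factors summed to 10369, 10070, 10555 and 10494 CPM in pools 1 to 4, a CV of 0.0208 that became 0.0746 under TMM, where the sums ran from 9655 CPM in pool 4 to 11474 CPM in pool 1. Of these 24 features, 22 reached 1 CPM, 9 were among the 500 highest and the median rank was 891.5. The central pair proteins SPAG16 and SPAG6 averaged 1477 ± 198 and 1418 ± 159 CPM, the axonemal proteins WDR66 and CFAP52 1479 ± 154 and 1313 ± 162 CPM, and sperm flagellar 2, needed for sperm tail formation in mammals, 1241 ± 73.6 CPM (SD, n = 4 each). Intraflagellar transport, the traffic of cargo along the growing axoneme, was represented by 15 features of which 14 reached 1 CPM, with a median rank of 714. It was led by WDR19 (IFT144) at 1778, 1637, 1836 and 1826 CPM and by IFT80 at 1180, 1099, 1053 and 1015 CPM.

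Motors and structures of the cell body were less uniform in rank. Of 60 kinesins, 37 reached 1 CPM, with a median rank of 4528. The highest were KIF9, which is found in motile flagella, at 1255 ± 138.5 CPM, and KIF20A, a motor of cytokinesis, at 746.2 ± 146 CPM (SD, n = 4 each). Among 33 centrosomal, centriolar and septin features, septin-6 had 2275, 1154, 1582 and 1826 CPM and was lowest in pool 2. Septin-4, which forms the ring at the base of the mammalian sperm principal piece, was at 980.7, 770, 897.4 and 1020 CPM. Unconventional myosin-VIIa, an actin motor, was at rank 16, with 4519, 2886, 2819 and 3760 CPM.

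**Figure D3:**
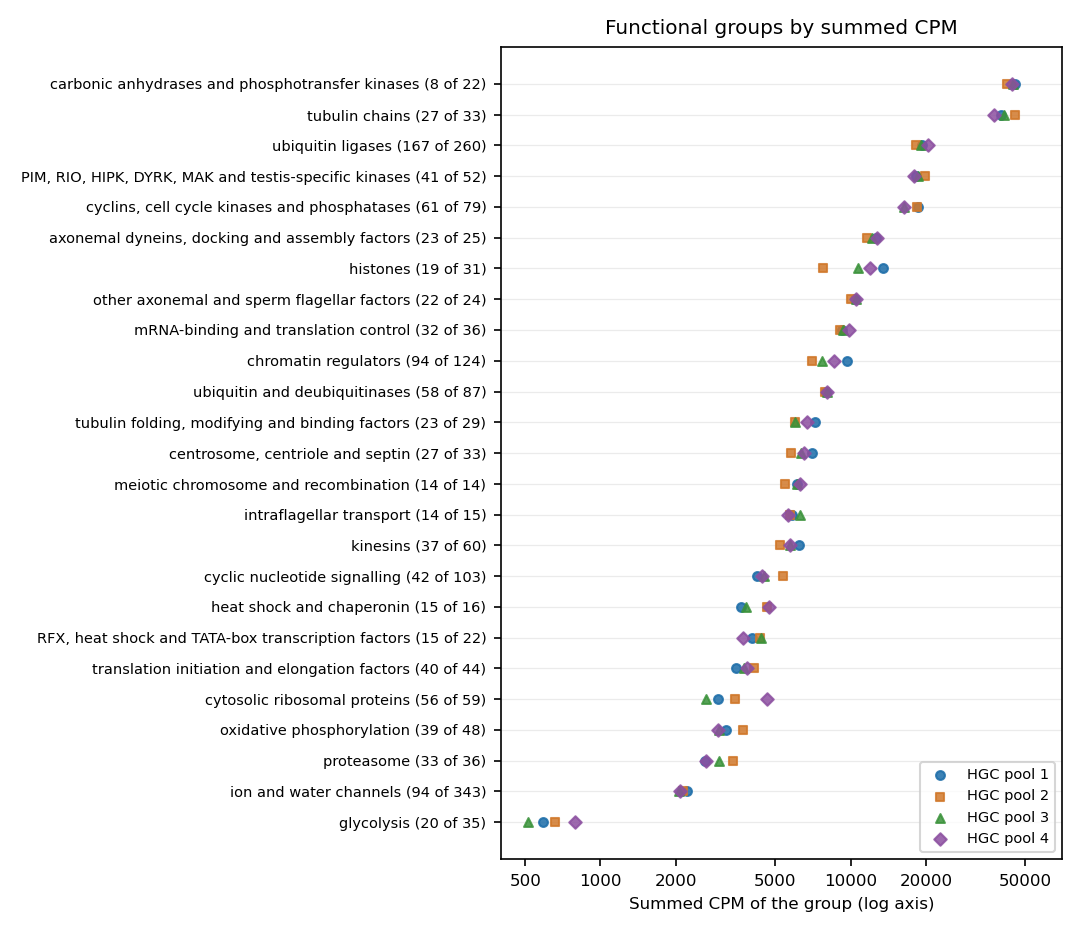
Summed CPM (horizontal axis, log scale) of 25 groups of mRNAs collected by product name, 1 symbol per HGC pool. The number of members with a mean of 1 CPM or more, of all members, stands beside each name. The sums of flagellar factors lie between 10070 and 10555 CPM, whereas those of cytosolic ribosomal proteins run from 2637 CPM in pool 3 to 4628 CPM in pool 4.

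Regulators of division were abundant. Of 79 cyclins, cell cycle kinases and phosphatases, 61 reached 1 CPM and 10 were among the 500 highest, and together they took 1.75% of the mRNA counts. Cyclin-B1, the partner of CDK1 at entry into division, had 3125 and 3122 CPM in pools 1 and 2 but 2095 and 2171 CPM in pools 3 and 4. Cyclin-A2 was likewise higher in pools 1 and 2, with 1942, 1939, 1648 and 1598 CPM. DBF4, which activates the kinase that fires replication origins, averaged 2001 ± 456 CPM and Aurora kinase A-B, a spindle kinase, 1945 ± 134.5 CPM (SD, n = 4 each).

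All 14 features of the meiotic chromosome group reached 1 CPM. The group holds proteins that pair, join and recombine homologous chromosomes, and it also holds the RNA helicase DDX4. Synaptonemal complex 1, the rod that links paired chromosomes, was at rank 19, with 3573, 2164, 3613 and 3666 CPM and was lowest in pool 2. Several other members ran the other way. The cohesin subunit REC8 had 196.8, 379.8, 228.1 and 155.7 CPM, the recombinase DMC1 101.8, 153.2, 98.5 and 66.3 CPM, SMC1B 104.7, 165.2, 101.9 and 103.8 CPM and TEX11 226.1, 300.7, 216.6 and 220.7 CPM. Each of these 4 was highest in pool 2, as were 8 of the 14 members under the mRNA total and under TMM, against 26.2% and 27.4% of all 6707 mRNAs of 10 CPM or more. The germ cell helicase DDX4 (vasa) averaged 324.5 ± 66.6 CPM and DAZL, a translation regulator of germ cells, 164.3 ± 50.5 CPM (SD, n = 4 each). SPO11, whose protein the study stained in these cells, had no matching product name and was not analysed here.

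A single member made up most of the histone counts. Histone H1 (Saurata1B045110), a linker histone that binds between nucleosomes, was at rank 4, with 12437, 7220, 9801 and 11022 CPM, and a second histone H1 (Saurata1B019762) had 628.9, 228.8, 521.9 and 637.3 CPM. Both were lowest in pool 2. The 31 histone features summed to 10959 ± 2425 CPM, and the next after both H1 features, an H2B core histone (Saurata1B051959), averaged 101.7 ± 24.2 CPM (SD, n = 4 each). The libraries were primed on poly(A) tails, which most core histone mRNAs lack, so these values do not measure the histones as a class. BRDT (bromodomain testis-specific), a reader of acetylated histones that acts in mouse spermatids, was at rank 17, with 4298, 2553, 3214 and 3573 CPM. Of 124 chromatin regulators, 94 reached 1 CPM, with a median rank of 5772.

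The RFX, heat shock and TATA-box transcription factors had a median rank of 1618, with 15 of 22 features at 1 CPM or more. HSF5, a heat shock factor of the germ line, was at rank 78, with 1357, 1647, 1644 and 1181 CPM. The RFX factors, which drive ciliary genes, were present as RFX1 features of 769.3 ± 82.3 and 763.1 ± 105 CPM and RFX2 at 364.4 ± 78.6 CPM (SD, n = 4 each).

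The 36 mRNA-binding and translation control features took 0.939% of the mRNA counts, and 32 reached 1 CPM. Polyadenylate-binding 1, which coats poly(A) tails, had 2213, 1535, 2070 and 2535 CPM, and nuclease-sensitive element-binding 1, the Y-box protein that packages stored mRNAs, 1983, 1887, 2222 and 2228 CPM. The RNA export adaptor THOC4 averaged 1255 ± 175 CPM, and CCR4-NOT subunit 6, a deadenylase, 1054 ± 131 CPM (SD, n = 4 each). NSUN7, an RNA methyltransferase family member needed for sperm motility in the mouse, was at rank 25, at 2812 ± 498 CPM. The 59 cytosolic ribosomal protein mRNAs summed to 3416 ± 876 CPM, or 0.342% of the mRNA counts. Ribosomal protein mRNAs are short and so weigh less in CPM.

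Protein turnover was represented by many members. Of 260 ubiquitin ligases, which mark proteins for destruction, 167 reached 1 CPM and together they summed to 19225 ± 839 CPM. MARCH10, a ligase of the rodent spermatid tail, was at rank 10, with 4307, 3159, 3927 and 5533 CPM, and the CCNB1IP1 ligase (HEI10), which acts on meiotic crossovers, averaged 961.1 ± 92.8 CPM. Polyubiquitin-B had 1598, 2188, 2071 and 1874 CPM. None of the 36 proteasome mRNAs was among the 500 highest, where 4.04% of all mRNAs of 1 CPM or more were. The 33 of them at 1 CPM or more had a median rank of 2451, against 6193 for all such mRNAs. Together the 36 summed to 2611, 3398, 2978 and 2642 CPM in pools 1 to 4. HSP90-beta, the leading chaperone, had 2040, 2414, 2089 and 2540 CPM.

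Kinases and cyclic nucleotide enzymes included several of the most abundant mRNAs. The PIM, RIO, HIPK, DYRK, MAK and testis-specific kinases had a median rank of 1034, with 41 of 52 features at 1 CPM or more and 12 among the 500 highest. This list joins several families and, like the other groups, was drawn up with earlier results of these data known, so its rank describes these members only. PIM1 had 2117, 2494, 2276 and 2719 CPM, and RIO3 3012, 1742, 2061 and 2219 CPM. The phosphodiesterase PDE7A, which breaks down cAMP, was at rank 20, with 2827, 3867, 3064 and 2966 CPM. The leading adenylate cyclase, type 6, which makes cAMP, averaged 449.6 ± 28.7 CPM (SD, n = 4). The regulatory subunit 2 of phosphatase 6 was at rank 14, with 4235, 3232, 3054 and 3825 CPM.

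Energy metabolism outside creatine kinase took small shares of the counts. Of 48 oxidative phosphorylation mRNAs, 39 reached 1 CPM, with a median rank of 3252 against 6193 for all such mRNAs. They were led by cytochrome c with 1173, 1198, 825.6 and 687 CPM, and the group summed to 3200 ± 346 CPM. The 35 glycolytic mRNAs summed to 637.7 ± 119 CPM, with GAPDH-2 at 263.4 ± 32.6 CPM (SD, n = 4 each). Of these 35, 20 reached 1 CPM, with a median rank of 6606.5. Of 343 ion and water channels, 94 reached 1 CPM, whereas 39.3% of all mRNAs did so. Among them the aquaporin FA-CHIP, a water channel, had 313.6, 275.4, 211.7 and 203.7 CPM, and voltage-gated potassium channel subunit beta-2 244, 196.3, 189.3 and 194.6 CPM.

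The pools ranked mRNAs alike. Over the 12385 mRNAs with a mean of 1 CPM or more, Pearson's r of log2(CPM + 1) between pools was 0.956 to 0.977 and Spearman's rho 0.942 to 0.969 across the 6 pairs. These correlations run across genes, which are not independent replicates, and are given as a description. Pools 2 and 3 were the closest pair by both, while the farthest pair changed with the filter, from pools 2 and 4 (r = 0.956) at 1 CPM or more to pools 1 and 2 (r = 0.919) at 100 CPM or more. In the pairs, 222 to 511 of the 6707 mRNAs of 10 CPM or more differed by more than 2-fold. The lists of the 100 highest mRNAs of the single pools had 79 to 89 members in common pair by pair and 73 in common to all 4.

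Spread between pools fell as abundance rose but stayed above counting noise. The median CV was 0.365 for mRNAs of 1 to 10 CPM, 0.231 at 10 to 100, 0.156 at 100 to 1000 and 0.138 over 1000 CPM, whereas counting noise alone would give medians of 0.126, 0.0452, 0.016 and 0.00596. The common biological CV estimated by edgeR, which removes counting noise, was 0.303 over 11853 mRNAs. It measures the spread between pools of 3 males, together with sorting and library preparation. Among mRNAs of 100 CPM or more, 386 of 1780 had a CV below 0.1 and 13 had a CV above 0.5.

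**Figure D4:**
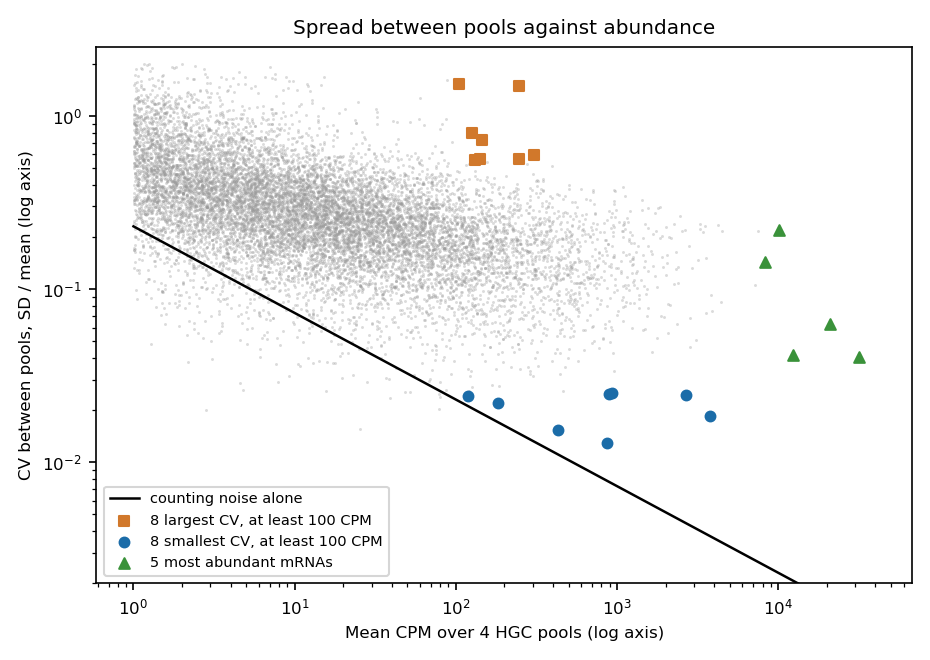
CV between the 4 HGC pools (vertical axis, log scale) against mean CPM (horizontal axis, log scale) for 12385 mRNAs of 1 CPM or more, grey points, with the line that counting noise alone gives. Squares mark the 8 mRNAs of the largest CV and circles the 8 of the smallest CV among mRNAs of 100 CPM or more, and triangles the 5 most abundant mRNAs, whose CV runs from 0.0408 to 0.219.

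The 8 most even mRNAs of 100 CPM or more were set by the scaling. None of them (0 of 8) was among the 8 most even under TMM, where their CVs were 0.0731 to 0.0980. Under the mRNA total the lowest CV, 0.0128, belonged to a feature named homolog subfamily B member 13 (Saurata1B051829), with 881.1, 865.2, 871.6 and 854.6 CPM. The manganese-transporting ATPase 13A1 had 430.1, 424.9, 440.6 and 434.2 CPM, the splicing kinase PRP4 181.2, 189.5, 180.6 and 183.5 CPM, and 6-phosphofructo-2-kinase, which sets the level of a glycolytic regulator, 912.4, 909.2, 869.1 and 877.3 CPM. Arf-GAP and FG repeat-containing 1 (AGFG1), needed for acrosome formation in the mouse, had 118.9, 119.9, 123.5 and 116.6 CPM. The 3 others had no product name and averaged 3799, 2695 and 930.5 CPM.

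The mRNAs below were among the 8 of 100 CPM or more with the largest CV, and were picked for it. A single pool stood apart in 4 of the 8, while the others were graded over the pools. These 4 were lysine-specific demethylase 4A (pool 1), WD repeat-containing 17 (pool 2), and hemoglobin beta and acidic ribosomal protein P0 (both pool 4). Hemoglobin beta, a red blood cell marker, had the largest CV of the 8 under the mRNA total, 1.53. Under TMM the CV of demethylase 4A was larger than that of hemoglobin beta. The levels of hemoglobin beta and P0 are given further below. Lysine-specific demethylase 4A (Saurata1B020593), which removes methyl groups from histone H3, had 798.5 CPM in pool 1 but 26, 29.5 and 136.9 CPM in pools 2 to 4. Multivesicular body subunit 12B had 256.9, 17.1, 129.4 and 97.3 CPM, and was low in pool 2. The Golgi protein TVP23 homolog B went the opposite way, with 31.6, 260.2, 202.3 and 85.8 CPM. WD repeat-containing 17 was high in pool 2, with 208.4, 572.1, 248.3 and 189.1 CPM, and ribosomal S6 kinase alpha-4 was highest in pool 3, with 52.6, 98.8, 223.2 and 154.2 CPM. Without pool 1, the mean of demethylase 4A was 64.1 CPM, against 247.7 CPM over the 4 pools.

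Whole groups also shifted between pools. Of the 49 cytosolic ribosomal protein mRNAs of 10 CPM or more, 43 were highest in pool 4 and 40 were lowest in pool 3, where 29.2% and 16.4% of all 6707 mRNAs of that abundance were highest and lowest. The group summed to 2941, 3459, 2637 and 4628 CPM in pools 1 to 4. The acidic ribosomal protein P0 had 107.3, 113.6, 83.8 and 258.5 CPM and ribosomal protein S2 143.3, 145.8, 105.3 and 226 CPM. In pool 2, 21 of 34 oxidative phosphorylation mRNAs and 16 of 27 proteasome mRNAs were at their highest, against 26.2% of all mRNAs. These orders held when the pools were scaled by TMM instead of the mRNA total. Under TMM, 39 of 49 ribosomal protein mRNAs were highest in pool 4, against 18.8% of all 6707 mRNAs. In pool 2, 21 of 34 oxidative phosphorylation mRNAs and 17 of 27 proteasome mRNAs were highest, against 27.4% of all. TMM scaling moved the median log2 level of mRNAs of 10 CPM or more by 0.14 in pool 1 and -0.12 in pool 4. Under it pool 1 was the highest of the 4 for 2029 of the 6707 mRNAs, against 1177 under the mRNA total, so that no order of the pools over all mRNAs can be read.

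**Figure D5:**
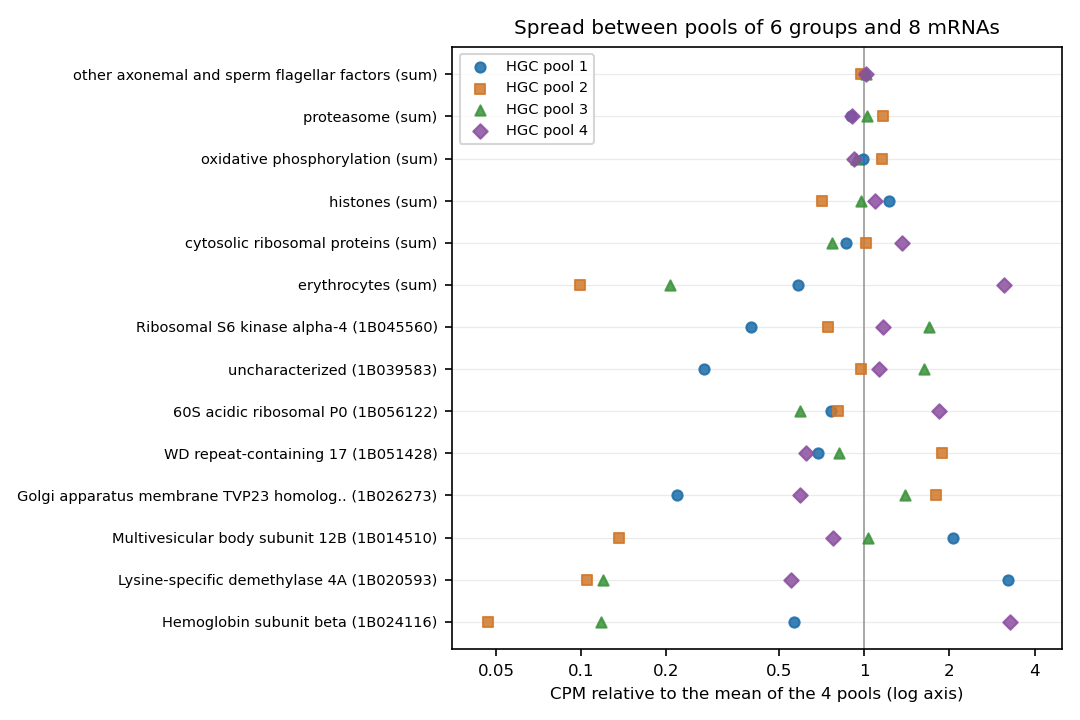
CPM relative to the mean of the 4 pools (horizontal axis, log scale) for the sums of 6 groups and for the 8 mRNAs of 100 CPM or more with the largest CV, 1 symbol per HGC pool. The flagellar sum stays near 1 under this scaling by the mRNA total but not under TMM (9655 to 11474 CPM), the ribosomal protein and erythrocyte sums are highest in pool 4, and demethylase 4A is highest in pool 1.

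Markers of other cells were searched to check the sort. Markers of meiosis and of spermatids were present, with 9 of 9 meiotic and 45 of 53 spermatid and flagellar markers at 1 CPM or more. They summed to 4563 ± 500 and 12298 ± 810 CPM (SD, n = 4 each), and 39.3% of all mRNAs reached 1 CPM. The meiotic list holds chromosome pairing, recombination and general germ cell proteins. It cannot tell secondary spermatocytes from earlier germ cells. Several markers of these stages (tektins, outer dense fibre proteins, ropporin, CatSper channels, piwi proteins) had no matching product name and were not analysed here. Of 7 spermatogonial markers, 2 reached 1 CPM, and the higher of these, ZBTB16, had 66.5, 25.2, 39.8 and 32.7 CPM. GDNF receptor alpha-1, a receptor of spermatogonial stem cells, had 1, 0, 0 and 1 counts. The spermatogonial markers nanos and sal-like 4 had no matching product name and were not analysed here.

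Of the marker sums, that of red blood cells varied most between pools. The 10 erythrocyte features summed to 133.8, 22.7, 47.1 and 710.9 CPM in pools 1 to 4, and 4 of them reached 1 CPM, where 39.3% of all mRNAs did so. Hemoglobin beta (Saurata1B024116), an oxygen carrier subunit, had 59.1, 4.88, 12.3 and 341.6 CPM, and hemoglobin alpha-A 39.4, 2.84, 10.3 and 298.3 CPM. The erythroid 5-aminolevulinate synthase, which starts heme synthesis, had 21.7, 6.02, 13.1 and 55.5 CPM. The remaining feature of the 4, band 3 anion exchange (Saurata1B048137), was more even, with a CV of 0.201 against 1.53 for hemoglobin beta. All 4 were highest in pool 4 under the mRNA total, but 3 of 4 under TMM. The sums of blood markers and of ribosomal protein mRNAs were both highest in pool 4. The lowest sum of blood markers was in pool 2 and that of ribosomal protein mRNAs in pool 3. The part of blood cells in the ribosomal protein values was not tested. Without pool 4 the erythrocyte sum averaged 67.9 CPM, against 228.6 CPM over the 4 pools.

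Of 37 leukocyte markers, 11 reached 1 CPM, where 39.3% of all mRNAs did so. Most of the 11 were low, with a median of 1.84 CPM against 12.2 CPM for all mRNAs of 1 CPM or more. Exceptions were 3 features of 10 CPM or more. The highest was an MHC class II gamma chain (CD74, Saurata1B047082), the chaperone of class II molecules, with 440.2, 590.9, 513.8 and 467.7 CPM. Coronin-1A, another of the 3, was fairly even between pools, with a CV of 0.197. No class II alpha or beta chain had a mean over 1.49 CPM. In a sum chosen after seeing the data, the remaining 36 leukocyte features gave 105.4, 40, 47.6 and 89.3 CPM. The leukocyte phosphatase CD45 (Saurata1B054174) had 3.24, 0.0568, 0.797 and 1.64 CPM, and a second class II gamma chain (Saurata1B048884) 45.7, 4.03, 3.79 and 22.3 CPM. Pools 1 and 4 were above pools 2 and 3 in these, as in hemoglobin, an order picked after seeing the data. In all, 6 of the 11 leukocyte features of 1 CPM or more had it, while the rest, among them CD74, did not. The share of all mRNAs with this order was not counted, so no shared signal can be read from it.

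Several main markers of Sertoli and Leydig cells (gonadal soma derived factor, anti-Muellerian hormone, SOX9, clusterin, insulin-like 3, 3 beta-hydroxysteroid dehydrogenase) had no matching product name and were not analysed here. Of 7 Leydig cell features 2 reached 1 CPM, where 39.3% of all mRNAs did so. Of these, the side-chain cleavage enzyme, the first step of steroid synthesis, had 3.19, 7.49, 13.8 and 7.09 CPM. Of 6 Sertoli cell features 2 reached 1 CPM. Serotransferrin, which is also a liver product, had 123.6, 86, 107.6 and 106.3 CPM. DMRT1, which germ cells also express in other vertebrates, had 4.33, 5.68, 5.58 and 5.39 CPM. Of 8 peritubular and vessel features 4 reached 1 CPM, with a median of 39.9 CPM. Of these, 3 were at 10 CPM or more, namely collagen alpha-1(I), von Willebrand factor (CV 0.202) and transgelin (CV 0.252). Collagen alpha-1(I) had 129.1, 154, 202.4 and 195.8 CPM, but its partner chain alpha-2(I) averaged 0.629 ± 0.561 CPM (SD, n = 4) and vimentin had 2.05, 0.568, 0.835 and 1.21 CPM. Oocyte markers, searched because seabream males can later change sex, were at 12.3 ± 1.54 CPM in sum (SD, n = 4), led by GDF9 at 5.81, 9.14, 9.03 and 7.82 CPM. Zona pellucida and zygote arrest proteins, main markers of oocytes, had no matching product name and were not analysed here.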

How the data were processed

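RNA was measured in 4 HGC libraries, each from a pool of 3 males, and in 4 SPZ_EJ libraries, which were not compared here. Libraries were oligo(dT)-primed, PCR-amplified and unstranded (SMARTseq2). The authors aligned paired reads with STAR 2.5.3a and estimated expression with RSEM 1.3.0 on a re-annotated genome with assembled transcripts, and named products by similarity. The deposited values are RSEM expected counts per feature, given as whole numbers and used as they are. Reads carry no molecular identifiers, so count limits cover counting error only.

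CPM was the count divided by the protein_coding total of its library, times 1000000. HGC libraries held 19865716 to 30645027 counts, and replicates are the 4 labelled pools. No test between groups was made. The CV is the SD over the mean of the pools. edgeR 4.0.16 (R 4.3.3) gave the biological CV, with DESeq2 1.42.0 as an alternative. Other steps used Python 3.11.15, pandas 2.3.3, numpy 2.4.6, scipy 1.17.1 and matplotlib 3.10.9, and the CV scripts were tested on simulated data. Named mRNAs were the 30 highest, up to 4 highest members of each group, the defining markers, the 8 largest and the 8 smallest CVs at a mean of 100 CPM or more, the 10 highest without a product name, and genes the study uses to tell the cells or as reference. Of the last, SPO11, beta-actin and chac1 had no matching product name. Members and lists were chosen with earlier results of these data known, so the ranks of groups are a description only. Alternatives covered scaling, depth, filters, pseudocounts, averages and leaving out each pool.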

Additional observations from a re-analysis of the deposited data

Results flagged for a closer look

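In groups of 4 values, a pool was set apart where its distance from the nearest other pool was above the 95% critical value of Dixon's test, as a part of the whole range. Chance marks about 1 in 20 groups in this way. Of the 221 named mRNAs of 1 CPM or more, 17 had such a pool. As 4 of these were among the 8 chosen for their large CV, the count of 17 cannot be set against that chance rate. Among the 213 not chosen for a large CV, 13 had such a pool, a share near that chance rate. The mRNAs listed below are therefore a description only. Such a pool was also seen in 1 of 34 group sums and 2 of 11 measures of the libraries.

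In pool 1, the feature Saurata1B004967, which has no readable product name, was lowest at 3845 CPM, with 4537 to 4601 CPM in the other pools. Lysine-specific demethylase 4A was highest there at 798.5 CPM (26 to 136.9 CPM elsewhere), as was voltage-gated potassium channel subunit beta-2 at 244 CPM (189.3 to 196.3 CPM).

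In pool 2, synaptonemal complex 1 was lowest at 2164 CPM, with 3573 to 3666 CPM in the other pools, whereas 4 mRNAs were highest. These were WD repeat-containing 17 at 572.1 CPM (189.1 to 248.3 CPM elsewhere), the 26S proteasome non-ATPase subunit 2 at 347.4 CPM (198.8 to 217.4 CPM), TEX11 at 300.7 CPM (216.6 to 226.1 CPM) and SMC1B at 165.2 CPM (101.9 to 104.7 CPM).

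In pool 3, the uncharacterized Saurata1B010615 was highest at 3133 CPM (2711 to 2771 CPM elsewhere) and A-kinase anchor 7 isoform gamma (Saurata001193) at 5.65 CPM (1.36 to 1.94 CPM). Pool 3 also had the most counts, 30645027 in all and 26350521 on mRNAs, with 19865716 to 21229363 and 16498336 to 17619327 in the other pools.

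In pool 4, hemoglobin beta was highest at 341.6 CPM (4.88 to 59.1 CPM elsewhere), hemoglobin alpha-A at 298.3 CPM (2.84 to 39.4 CPM) and the erythrocyte sum at 710.9 CPM (22.7 to 133.8 CPM). Acidic ribosomal protein P0 was highest at 258.5 CPM (83.8 to 113.6 CPM) and axonemal dynein heavy chain 9 at 37.8 CPM (20.2 to 22.6 CPM). The others were the sperm-associated antigen 7 homolog at 17.2 CPM (7.78 to 8.54 CPM), tubulin alpha-8 (Saurata1B022558) at 7.03 CPM (3.18 to 3.68 CPM) and a tubulin alpha chain (Saurata1B054866) at 6.55 CPM (0.797 to 0.911 CPM).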

How the results depend on the processing

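The number of mRNAs at 1 CPM or more in every pool was 10862, and 10962 to 11135 without each pool in turn. Without each pool in turn, 372 to 390 mRNAs held 50% of the counts, the 100 highest held 28.8 to 29.2%, the median CV was 0.183 to 0.213, mean Pearson's r was 0.961 to 0.967 and the biological CV 0.283 to 0.317. Groups whose median rank was better than that of all mRNAs of 1 CPM or more numbered 21 to 23 of 25, and the summed markers of 6 other cell types 1025 to 1254 CPM. The groups were drawn up with earlier results of these data known, so their number describes these lists only. Of the 30 highest mRNAs, 28 to 29 stayed among the 30 highest. Without the most abundant mRNA, 409 mRNAs held 50% and the 100 highest held 26.8%. The median CV of 0.209 became 0.265 at 1 CPM or more, 0.155 at 100 CPM or more and 0.161 by the median absolute deviation. The mean r of 0.965 became 0.975 with a pseudocount of 5, 0.984 without a filter, 0.955 at 10 CPM or more and 0.952 as Spearman's rho. The biological CV of 0.303 became 0.434 with every mRNA of at least 1 count. DESeq2 gave 0.231, but as the root of the median dispersion of single genes, a different statistic from the common value of edgeR. In alternatives chosen after seeing the data, the marker sum of 1189 CPM became 363 CPM without 4 features that were even between pools. CVs of single mRNAs and group sums under TMM, likewise chosen after seeing the data, stand beside their values, and 6 of the 8 largest CVs stayed among the 8 largest. The causes were not tested. Of 1710 alternative levels of the named mRNAs, 1638 moved by less than the spread (SD) between pools. Neither leaving out a pool nor taking the median can move a level by more than that SD. For those alternatives the count therefore does not measure stability. The remaining 72 levels belonged to 12 mRNAs without a count in any pool, which have neither a level nor a spread. CPM per kilobase was not run, since the table gives no lengths. No paired analysis was possible because 1 group was described without a test.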

Other observations

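Long non-coding RNAs took little of the counts but reached appreciable levels. Of 159925 such features, 35047 had at least 1 count and 1879 a mean of 1 count or more per 1000000 counts of all features. The highest, Saurata1ncB037636, had 1052, 1808, 1574 and 1332 per 1000000 counts in pools 1 to 4, followed by Saurata1ncB011876 with 778.8, 1298, 965.9 and 616.4 per 1000000 counts. Both were highest in pool 2. The third, Saurata1ncB100012, was more even, with 862.8, 836.6, 1045 and 838.0 per 1000000 counts. None of the 3 has a product name.

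Among mRNAs without a product name, Saurata1B056493 and Saurata1B056494, which carry consecutive identifiers, shared their order of pools. The first had 5224, 8897, 7372 and 8379 CPM and the second 3153, 5467, 4567 and 4689 CPM, so that both were lowest in pool 1 and highest in pool 2. Saurata1B014976 had 7128, 7819, 6180 and 7780 CPM.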
